A study of Sus scrofa with 6 samples.

Results

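The SR proteins and the hnRNP proteins are the main families of RNA-binding proteins that steer the choice of splice sites. Genes were taken as members when the pig symbol of their Ensembl identifier begins with SRSF or HNRNP. This gave 24 of the 21280 protein-coding genes in the table, 10 SRSF and 14 HNRNP genes. SRSF4 and HNRNPH2 also have an identifier in the name table, but not among the genes of the expression table, and were not analysed here. All 24 members were above the filter on low values, which asked for at least 1 TPM (an abundance scaled by gene length and by library) in at least 3 libraries.

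The study compared brain tissue of 3 wild boars with cerebrum of 3 Rongchang pigs, a Chinese domestic breed, with 1 ribosomal-RNA-depleted, stranded library per animal. The labels give every animal as a female of 2 years, and the series title places the tissue in the prefrontal cortex. The domestic pig libraries were labelled as a re-analysis of earlier ones. Breed, labelled tissue and library source therefore separate the same 3 libraries from the other 3 and cannot be told apart.

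SR proteins carry RNA recognition motifs and a tail rich in arginine and serine. They bind exonic enhancers and help to bring the spliceosome to nearby splice sites, and phosphorylation of the tail by SRPK and CLK kinases governs where in the nucleus they sit and how they act. The hnRNP proteins coat nascent transcripts, and many of them act on exons as silencers, against the SR proteins. Many genes of both families hold an exon or intron whose inclusion yields a transcript that is degraded, by which the protein limits its own level; gene-level TPM adds such transcripts to the productive ones. In bulk tissue, fewer cells of a type and less RNA per cell cannot be told apart.

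The protein-coding genes took from 17.2% to 31.0% of 1000000 TPM in the boars and from 23.5% to 40.9% in the domestic pigs. Values below are therefore TPM after each library was divided by its median ratio to the others (rescaled TPM). Fold changes are wild boar minus domestic pig throughout. Over all 11752 tested genes their median was -0.41 before and 0.01 after this step. On the rescaled scale 19.5% of all tested genes passed limma's test at an adjusted p of 0.05, 10.7% as lower and 8.88% as higher in wild boar. On deposited TPM 1.60% passed, 1.46% as lower.

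Of the 24 members, 10 were lower in wild boar on rescaled TPM and 0 were higher, and 14 did not pass. The 95% confidence intervals of those 14 together ran from -0.72 to 0.50 on the log2 scale, and a missed threshold does not show that a gene did not differ. The lower members made 50% of the SRSF family (5 of 10) and 35.7% of the HNRNP family (5 of 14), against 10.7% of all tested genes. SRSF11, SRSF5, SRSF12, SRSF10 and SRSF7 fell in the first family, and HNRNPH1, HNRNPA2B1, HNRNPDL, HNRNPU and HNRNPR in the second. The family medians of the log2 fold change were -0.32 for SRSF and -0.26 for HNRNP, against 0.01 for all tested genes. On deposited TPM all 24 members were below 0, as were 88.0% of all tested genes, and only SRSF11 passed; 5 SRSF and 5 HNRNP members (50% and 35.7%) had an unadjusted limma p under 0.05 there, against 17.8% of all tested genes. With boars 1, 2 and 3 and domestic pigs 1, 2 and 3 left out in turn, 3, 1, 1, 1, 4 and 2 SRSF members and 2, 2, 1, 2, 3 and 3 HNRNP members passed on rescaled TPM, all lower. Of all tested genes, 5.31%, 4.01%, 4.20%, 3.66%, 9.5% and 6.83% passed as lower in those fits.

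**Figure D1:**
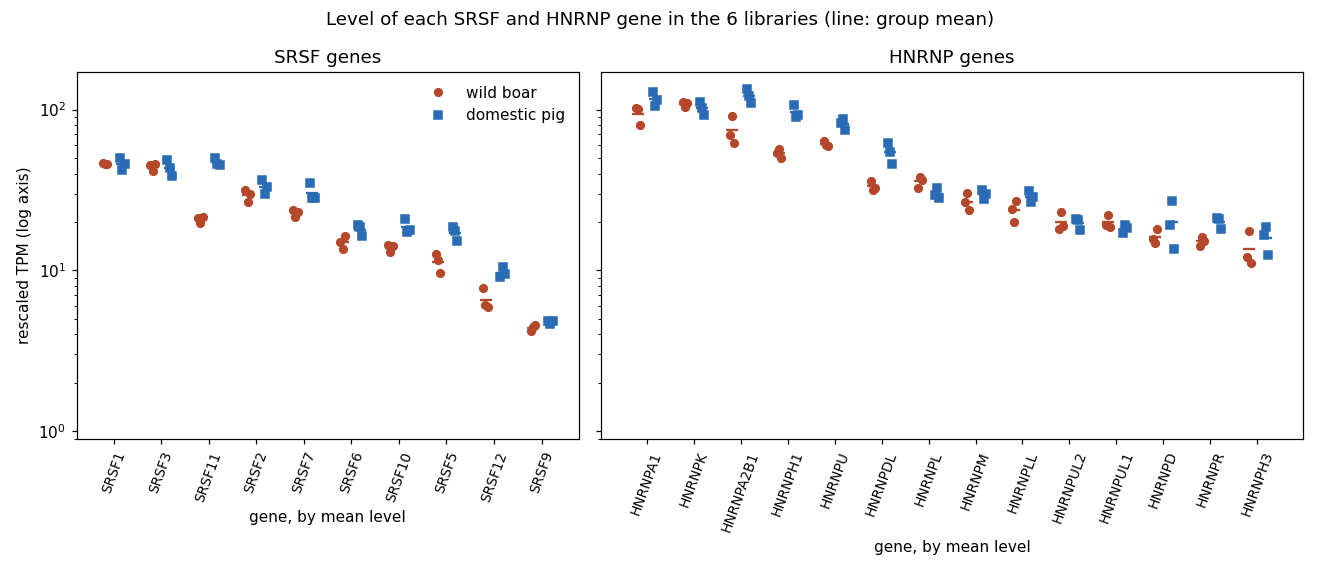
Rescaled TPM on a log axis of each SRSF gene (left) and each HNRNP gene (right), with 1 point per library, circles for wild boar, squares for domestic pig and a line at each group mean. The groups of SRSF11 lie farthest apart in the left panel, at 19.6 to 21.6 against 45.0 to 50.2, while those of SRSF1 and SRSF3 overlap.

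SRSF11, an SR-type protein that takes part in the inclusion of very short neuronal exons, had the largest fold change of the 24. Its rescaled TPM was 21.1, 19.6 and 21.6 in boars 1 to 3 and 50.2, 46.2 and 45.0 in domestic pigs 1 to 3. The groups did not overlap, and the 3 animals within each stayed close together. SRSF11 was lower by a log2 fold change of -1.14 (SE 0.10, limma adjusted p = 0.0019), and -1.64 (adjusted p = 0.0126) on deposited TPM. SRSF11 passed without any 1 of the 6 libraries, with a largest adjusted p of 0.0123 without domestic pig 1. In domestic pig its mean, 47.1 ± 2.74, stood in one band with SRSF1 and SRSF3, whereas in wild boar its mean of 20.8 ± 1.06 (SD, n = 3 each) was the fifth of the family.

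SRSF5, an SR protein also known as SRp40, measured 12.6, 11.6 and 9.63 rescaled TPM in the boars and 18.7, 17.5 and 15.3 in the domestic pigs. Every wild boar library was below every domestic pig library (log2 fold change -0.57, SE 0.13, limma adjusted p = 0.0205). SRSF12, a member described as an antagonist of the classical SR proteins, measured 7.75, 6.12 and 5.88 in wild boar against 9.12, 10.5 and 9.42. Its groups did not overlap either (-0.50, SE 0.12, adjusted p = 0.0283). SRSF5 missed the threshold without boar 2, boar 3 or domestic pig 1. Among the 6 fits that each left out 1 library, SRSF12 passed only in the one without boar 1.

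SRSF10, which turns into a general splicing repressor when it is dephosphorylated, measured 14.3, 12.9 and 14.2 rescaled TPM in the boars and 20.8, 17.4 and 17.9 in the domestic pigs. SRSF7, which also serves in mRNA export, measured 23.6, 21.3 and 23.0 against 34.8, 28.1 and 28.2. In both genes domestic pig 1 was the highest library and the groups did not overlap. Their fold changes were alike in size, -0.41 (SE 0.11, limma adjusted p = 0.036) for SRSF10 and -0.40 (SE 0.12, adjusted p = 0.0472) for SRSF7. With 1 library left out, both passed only in the fit without domestic pig 2; without domestic pig 1 they stood at -0.34 (adjusted p = 0.109) and -0.30 (adjusted p = 0.135).

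SRSF1 and SRSF3, the SRSF genes of highest mean level, did not pass. SRSF1, the founding SR protein, measured 46.2, 45.6 and 45.7 rescaled TPM in the boars and 50.0, 42.0 and 45.6 in the domestic pigs. SRSF3, a small SR protein that also takes part in mRNA export, measured 44.9, 41.2 and 45.9 against 48.4, 43.3 and 38.6. The groups of both overlapped, and the 95% confidence intervals of their log2 fold changes ran from -0.25 to 0.25 and from -0.25 to 0.30. On deposited TPM SRSF1 and SRSF3 were at -0.50 and -0.48, close to the shift of all genes there.

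SRSF2, a protein of nuclear speckles, measured 31.4, 26.6 and 30.0 in the boars and 36.2, 29.8 and 33.0 in the domestic pigs. Its log2 fold change was -0.16 (limma adjusted p = 0.348). SRSF6 measured 15.0, 13.6 and 16.3 against 19.0, 18.5 and 16.3 (-0.24, adjusted p = 0.153). SRSF9, the family's lowest member, measured 4.17, 4.46 and 4.54 against 4.82, 4.66 and 4.85 (-0.10, adjusted p = 0.495). Of these, only SRSF9 had groups that did not overlap, by a margin of the size of the spread within a group.

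HNRNPH1, which binds runs of guanines and can favour or silence exons, had the largest fold change of the HNRNP genes. It measured 53.5, 56.7 and 50.1 rescaled TPM in the boars and 106, 90.0 and 92.3 in the domestic pigs. The gap between the groups was wide beside the spread inside them (log2 fold change -0.84, SE 0.12, limma adjusted p = 0.00641). HNRNPH1 passed without any 1 of the 6 libraries, with a largest adjusted p of 0.0294 without wild boar 3. On deposited TPM its fold change was -1.34 (adjusted p = 0.0725) and did not pass. HNRNPH1 has a near-identical relative in HNRNPH2, which is not among the genes of the expression table. How reads that match both were counted is unknown.

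HNRNPA2B1, which silences exons and carries mRNAs into neuronal processes, measured 69.2, 91.5 and 62.2 rescaled TPM in the boars and 135, 122 and 109 in the domestic pigs. Wild boar 2 stood nearest to the domestic pigs, and the groups did not overlap (log2 fold change -0.72, SE 0.17, limma adjusted p = 0.0229). HNRNPDL, a relative of the AU-rich element binding protein HNRNPD, measured 35.9, 31.6 and 32.5 against 61.8, 54.6 and 46.1. Its groups were also apart (-0.68, SE 0.13, adjusted p = 0.0142). HNRNPA2B1 missed the threshold without boar 1, boar 3 or domestic pig 1, at adjusted p values up to 0.0773. HNRNPDL missed it narrowly without wild boar 2 (0.0514) or wild boar 3 (0.0504).

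HNRNPU, a nuclear scaffold protein that binds both RNA and chromatin, measured 63.7, 60.4 and 59.1 in the boars and 82.3, 87.3 and 74.3 in the domestic pigs. HNRNPR, which associates with axonal mRNAs in motor neurons, measured 14.1, 16.2 and 15.3 against 21.0, 20.8 and 18.2. The groups of both genes were apart. The fold changes were -0.41 (SE 0.12, limma adjusted p = 0.0428) for HNRNPU and -0.37 (SE 0.11, adjusted p = 0.0454) for HNRNPR. These were the weakest calls of the family, since neither held when any 1 library was left out, with largest adjusted p values of 0.125 (without wild boar 3) and 0.147 (without wild boar 1).

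HNRNPA1, an exon silencer of high level, measured 102, 100.3 and 80.1 rescaled TPM in the boars and 129, 105 and 115 in the domestic pigs. Its groups did not overlap, but the gap between wild boar 1 and domestic pig 2 was small (log2 fold change -0.31, 95% confidence interval -0.64 to 0.03, limma adjusted p = 0.164). With quantile scaling it passed at -0.43 (adjusted p = 0.0486). HNRNPA1 has many processed copies in mammalian genomes, so its level is uncertain. HNRNPK, a poly(C)-binding protein, measured 111, 104 and 109 against 111, 102 and 92.7. The groups of HNRNPK overlapped (0.08, 95% confidence interval -0.20 to 0.37, adjusted p = 0.66).

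HNRNPL, which binds CA repeats, was the only member whose 3 wild boar libraries all lay above the domestic pig ones on rescaled TPM, at 32.7, 38.0 and 36.4 against 29.4, 32.5 and 28.2. The highest domestic pig library was close to the lowest wild boar one, and the gene did not pass (log2 fold change 0.24, 95% confidence interval -0.01 to 0.50, limma adjusted p = 0.153; -0.26 on deposited TPM). HNRNPLL, its paralogue, measured 24.1, 19.9 and 26.9 against 31.0, 26.6 and 28.7, with overlapping groups (-0.28, adjusted p = 0.162). The remaining members HNRNPD, HNRNPH3, HNRNPM, HNRNPUL1 and HNRNPUL2 had overlapping groups and fold changes from -0.24 to 0.13 and did not pass. HNRNPD was the least even of them, at 19.1, 27.0 and 13.7 rescaled TPM in domestic pigs 1 to 3.

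**Figure D2:**
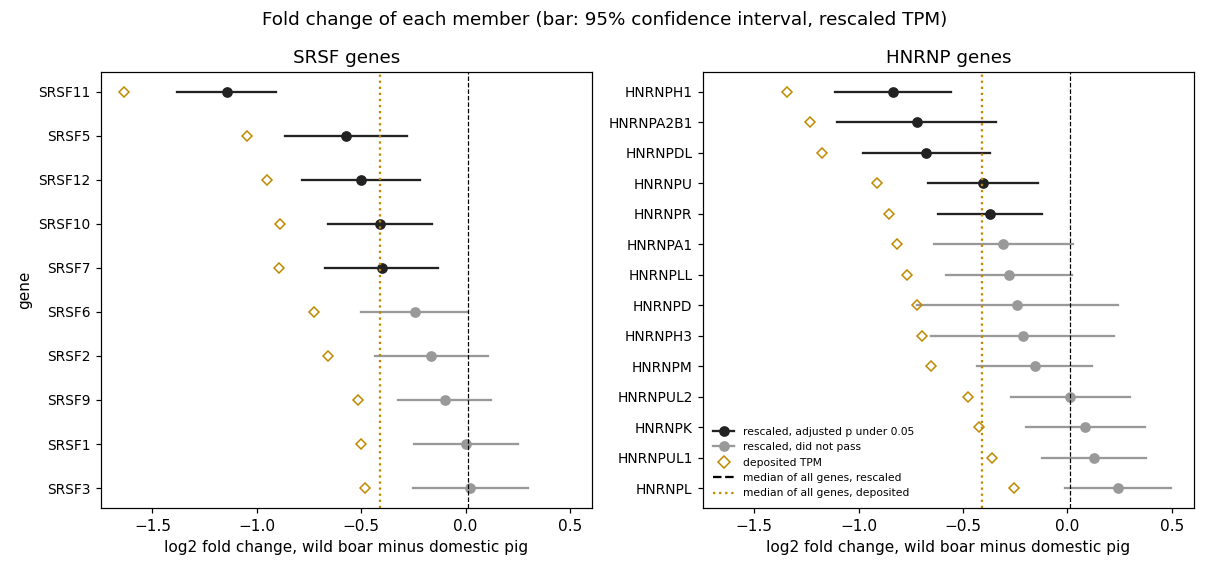
Log2 fold change of each SRSF gene (left) and HNRNP gene (right), wild boar minus domestic pig. Filled circles with 95% confidence intervals are rescaled TPM, dark where the adjusted p was under 0.05; open diamonds are deposited TPM, and the vertical lines mark the median of all tested genes on each scale (0.01 and -0.41). The 10 dark circles all lie below 0, from -1.14 for SRSF11 to -0.37 for HNRNPR.

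In both families 6 members had rescaled values that were lower in every wild boar library than in every domestic pig library, which is 60% of SRSF and 42.9% of HNRNP genes, against 22.1% of all tested genes. HNRNPL was the 1 member with the opposite order, against 19.6% of all tested genes. The median deviation of the SRSF genes from their own mean over the 6 libraries was -0.11, -0.24 and -0.11 log2 units in boars 1 to 3 and 0.21, 0.11 and 0.09 in domestic pigs 1 to 3. For the HNRNP genes it was -0.13, -0.05 and -0.21 against 0.21, 0.15 and 0.07. Both families were thus highest in domestic pig 1, but wild boar 2 was the lowest library for SRSF and the highest wild boar library for HNRNP.

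The families were next compared with each other inside each library, where the scaling between libraries has no effect. The summed TPM of the SRSF genes was 0.370, 0.324 and 0.386 of the HNRNP sum in boars 1 to 3 and 0.360, 0.342 and 0.365 in domestic pigs 1 to 3. The groups overlapped, and the means were 0.360 ± 0.0318 and 0.356 ± 0.0119 (SD, n = 3 each). In rescaled TPM the SRSF genes summed to 213.6 ± 9.40 in the boars and 268 ± 20.9 in the domestic pigs, and the HNRNP sum 595 ± 31.9 and 754 ± 58.2. Both sums were lower in wild boar by a like proportion. Whether the fold changes of one family differ from those of the other was not tested.

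Members changed places within each family. SRSF11 made 9.56%, 9.64% and 9.96% of the SRSF sum in the boars and 17.2%, 17.9% and 17.7% in the domestic pigs. SRSF1 and SRSF3 made larger parts in wild boar, 21.5% ± 0.845 and 20.6% ± 0.502 against 17.1% ± 0.828 and 16.2% ± 0.871 (SD, n = 3 each). SRSF2 was the third SRSF gene with a larger part in every wild boar library, while SRSF5, SRSF7 and SRSF10 had smaller ones. Because the parts add up to the whole, a smaller part of SRSF11 raises those of the others.

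Among the HNRNP genes, HNRNPH1 made 8.96%, 9.05% and 8.91% of the sum in the boars and 13.1%, 11.9% and 13.3% in the domestic pigs. HNRNPA2B1 and HNRNPDL also had smaller parts in every wild boar library, at means of 12.4% against 16.1% and 5.61% against 7.15%. HNRNPK, HNRNPL, HNRNPUL1 and HNRNPUL2 had larger ones, but did not pass by level. As in the SRSF family, smaller parts of some members raise those of the others. HNRNPK made 18.2% ± 1.48 in wild boar, where it was the most abundant member, and 13.5% ± 0.196 in the domestic pigs, where HNRNPA2B1 and HNRNPA1 stood above it. HNRNPU and HNRNPR, which passed by level, had overlapping parts of the sum.

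**Figure D3:**
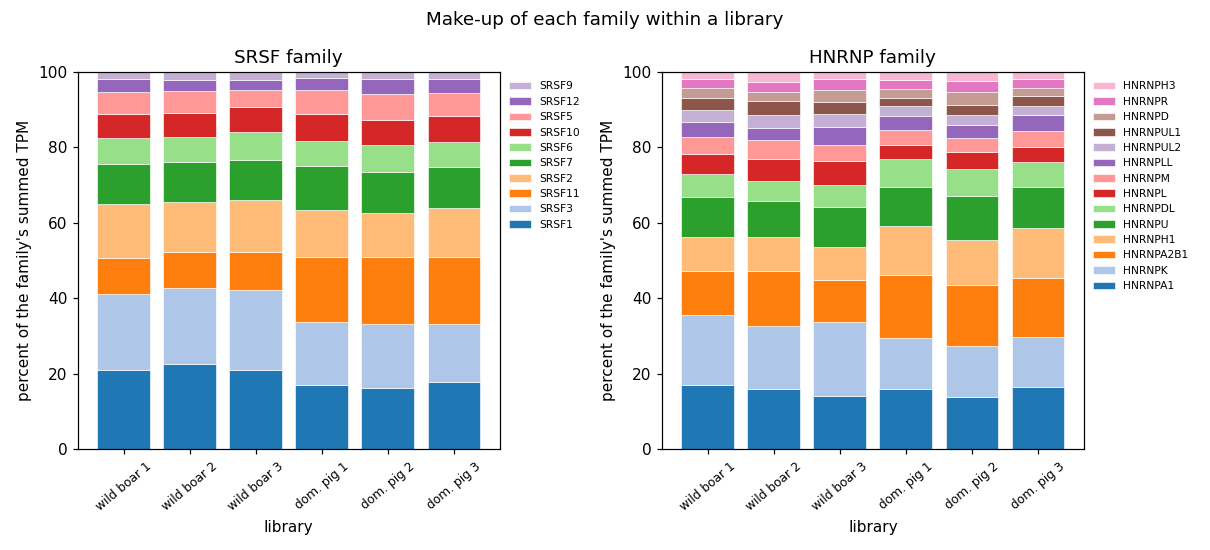
Stacked bars of the percentage that each gene makes of its family's summed TPM, with 1 bar per library. SRSF11 narrows from between 17.2% and 17.9% in the domestic pig bars to between 9.56% and 9.96% in the wild boar bars, and HNRNPK widens from about 13.5% to 18.2%.

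Some members of the families are neighbours in the genome. In the RefSeq annotation of Sscrofa11.1, HNRNPDL and HNRNPD lie next to each other on chromosome 8 with 0 protein-coding genes between them. HNRNPDL fell by 0.68 on the log2 scale, while HNRNPD was at -0.24 (95% confidence interval -0.72 to 0.24) and did not pass. SRSF7 and HNRNPLL on chromosome 3, with 1 protein-coding gene between them, stood at -0.40 and -0.28 (95% confidence interval of HNRNPLL -0.58 to 0.02), and HNRNPLL did not pass. The interval of HNRNPLL holds the value of SRSF7, that of HNRNPD holds the value of HNRNPDL, and the difference between neighbours was not tested. SRSF11 and SRSF10 share chromosome 6 with HNRNPR, HNRNPL and HNRNPUL1, and the 24 members lie on 12 chromosomes in all.

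Other genes of the splicing machinery were read from lists of related genes. The lists were drawn up with earlier results of these data known and are no independent support of a direction. In the order given below, they name 22, 10, 13 and 26 genes, of which 21, 8, 11 and 18 were tested. The others had no row under their symbol or missed the filter on low values. Of 21 tested SR-related proteins, which carry arginine-serine stretches but lie outside the SRSF family, 13 were lower in the boars and 0 higher on rescaled TPM, with a median of -0.66. This is 61.9% of the list, against 10.7% of all tested genes. The 4 of lowest p were PNISR (-1.58), LUC7L3 (-1.59), a relative of a U1 snRNP protein, U2SURP (-1.12), a U2 snRNP-associated protein, and SREK1 (-0.89), each at a limma adjusted p of at most 0.00351. On deposited TPM 4 of the 21 passed, all lower (19.0%, against 1.46% of all tested genes). SRSF11 was thus nearer in size to U2SURP than to any other SRSF gene.

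Of 8 tested kinases and import factors of SR proteins, 5 (62.5%) were lower and 0 higher, with a median of -0.40. CLK1, CLK4, SRPK1 and CLK2, all of which phosphorylate SR proteins, were at -1.24, -0.83, -0.60 and -0.40 (limma adjusted p from 0.00623 to 0.0406), and 1 of the 8, CLK1, passed on deposited TPM. Of 11 tested hnRNP and hnRNP-like proteins that go by other symbols, 2 were lower, TARDBP by -0.56 and RBMX by -0.45, and 9 did not pass, with a median of -0.09. The 18.2% that were lower stand nearer to the 10.7% of all tested genes than the share of either family does. SYNCRIP and PTBP3, the next in order of p, were at -0.31 and -0.27 (adjusted p = 0.0611 and 0.0982). On deposited TPM 0 of these 11 passed, and 2 (18.2%) had an unadjusted limma p under 0.05, close to the 17.8% of all tested genes.

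The last list holds proteins of splice site recognition and of the snRNP core. Of 18 tested, only SNRNP70, a U1 snRNP protein, was lower, by -0.51 (SE 0.13, limma adjusted p = 0.0305), and 17 did not pass, with a median of 0.08. The lower share of 5.56% stands below the 10.7% of all tested genes. SNRPA1, SNRPD1 and SF3B2, the next in order of p, were at -0.35, -0.22 and 0.22 and did not pass. On deposited TPM 0 of the 18 passed, and 2 (11.1%) had an unadjusted limma p under 0.05, against 17.8% of all tested genes. The difference between this list and the SRSF and HNRNP families was not tested.

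**Figure D4:**
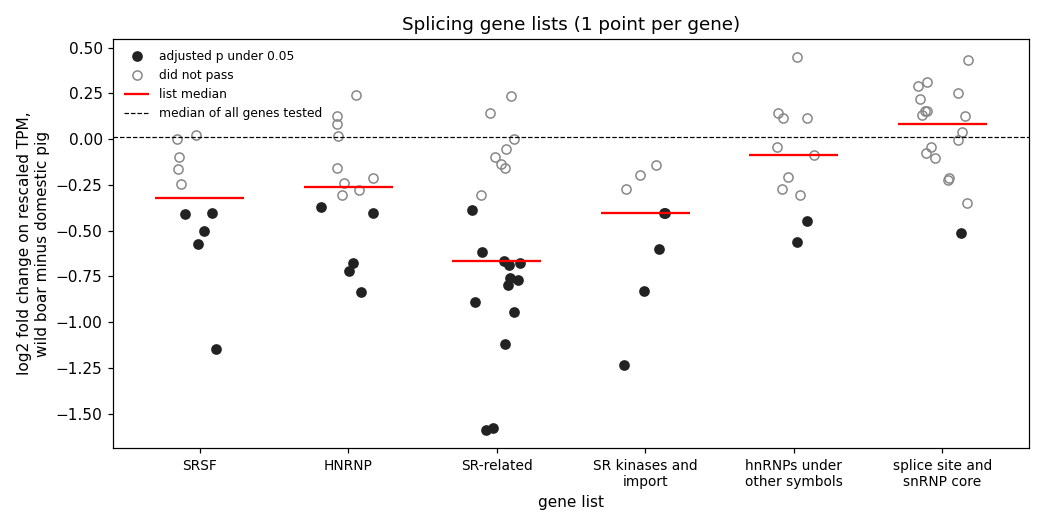
Log2 fold change on rescaled TPM, wild boar minus domestic pig, of each tested gene in the SRSF and HNRNP families and in 4 lists of related splicing genes; filled points had an adjusted p under 0.05, red lines are list medians and the dashed line is the median of all tested genes (0.01). The medians run from -0.66 for SR-related proteins to 0.08 for the splice site and snRNP core.

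Markers of brain cells, vessels and blood were present in every library. Each list held at least 1 whose groups did not overlap on rescaled TPM. Of all tested genes, 22.1% were lower in every wild boar library than in any domestic pig library, and 19.6% were higher. Summed rescaled TPM of 6 neuron markers was 1103 to 1446 in the boars and 1109 to 1443 in the domestic pigs, and of 4 oligodendrocyte markers 1742 to 2861 and 1993 to 2438. For 4 astrocyte markers the sums were 755 to 1048 and 766 to 835, and for 4 microglial markers 23.1 to 53.7 and 26.5 to 30.9. The 4 markers of endothelium and vessel wall summed to 43.7 to 61.1 in the boars and 20.0 to 26.8 in the domestic pigs. The 4 red blood cell markers summed to 449.7 to 1324 and 85.9 to 228. The neuron sum rested mostly on SNAP25 and the red blood cell sum on HBB, at means of 930 and 483 rescaled TPM. On rescaled TPM 3 of the 4 vessel genes (CLDN5, TAGLN and ACTA2) and all 4 red blood cell genes passed as higher in wild boar. Of all tested genes 8.88% did. On deposited TPM 0 of the vessel genes and 2 of the red blood cell genes passed as higher. The share of all tested genes there was 0.136%. In the lists with overlapping sums, no marker passed on deposited TPM. On rescaled TPM 1 neuron, 1 astrocyte and 1 microglial marker passed as higher there. These were SLC17A7 of excitatory neurons (0.80, limma adjusted p = 0.0264), ALDOC of astrocytes (0.54, adjusted p = 0.019) and the complement gene C1QA (0.72, adjusted p = 0.0402). The astrocyte water channel AQP4 (-0.62, adjusted p = 0.0731) and GAD2 of inhibitory neurons (-0.27, adjusted p = 0.0953) were lower in every wild boar library than in any domestic pig library, but did not pass. RBFOX3 of neurons (0.43, limma adjusted p = 0.0503) and MOG of oligodendrocytes (0.21, adjusted p = 0.274) were higher in every wild boar library. Neither of these passed. No marker passed as lower, and none was at 0 in any library. The part of these cells in the fold changes of the SRSF and HNRNP genes was not tested.

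The second table of the series holds circular RNAs (circRNAs), closed loops that arise when an exon's end is spliced back to the start of the same or an earlier exon. Of the 24 members, 7 hosted a circRNA, all of them HNRNP genes (7 of 14), and 0 of the 10 SRSF genes did. Of all tested genes whose symbol is in the annotation, 30.5% hosted one. The 14 member circRNAs came from HNRNPH3, HNRNPLL, HNRNPM, HNRNPA2B1, HNRNPDL, HNRNPR and HNRNPUL2. They were thinly read, with 231 back-splice reads in all, 8 of the 14 under 10 reads, and 4 found in all 6 libraries. With a count of 0, up to 3 reads are allowed, or 0.00412% to 0.00893% of the back-splice reads of a library, for counting error only.

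The most abundant came from HNRNPH3, a relative of HNRNPH1 (ssc_circ_5601, chromosome 14, 71491530 to 71493586, plus strand, 501 nt). It had 12, 10 and 8 back-splice reads in boars 1 to 3 and 22, 9 and 14 in domestic pigs 1 to 3, or 0.596, 0.308 and 0.487 TPM against 0.851, 0.520 and 0.659. The groups overlapped and it did not pass (log2 fold change -0.52, SE 0.43, limma adjusted p = 0.584). HNRNPLL gave the next one (ssc_circ_7547, chromosome 3, 101765610 to 101790729, plus strand, 1384 nt), with 8, 7 and 5 reads against 10, 8 and 15 (-0.57, SE 0.58, adjusted p = 0.664). An HNRNPM circRNA (ssc_circ_2469, chromosome 2, 70832690 to 70836232, minus strand, 340 nt) had 1, 4 and 1 reads against 7, 0 and 2 (-0.01, SE 0.78, adjusted p = 0.997). Of these hosts, HNRNPH3, HNRNPLL and HNRNPM, 0 had passed as genes.

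Of 12 member circRNAs tested 0 passed by limma, 1 had an unadjusted p under 0.05, and 0.134% of all 9709 tested circRNAs passed. The 3 of lowest p were a second HNRNPH3 circRNA (ssc_circ_5602, log2 fold change -1.15, adjusted p = 0.305), with 0, 1 and 0 reads in the boars and 3, 1 and 2 in the domestic pigs, an HNRNPLL circRNA (ssc_circ_7546, -0.93, adjusted p = 0.46) and an HNRNPR circRNA (ssc_circ_9356, -0.91, adjusted p = 0.491). The 12 tested member circRNAs had a median log2 fold change of -0.48, beside -0.45 for all tested circRNAs. Together the 14 made 0.0738%, 0.0608% and 0.0685% of the back-splice reads in the boars and 0.0831%, 0.0636% and 0.0741% in the domestic pigs, so the groups overlapped. The 95% confidence interval of the most read member circRNA, ssc_circ_5601, ran from -1.42 to 0.38 on the log2 scale.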

How the data were processed

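The authors deposited a TPM table of protein-coding genes and one of circRNAs, with 1 column per library (0 further columns went unused). STAR 2.6.0c and BWA 0.7.17 appear, with no role, in the submitters' processing notes. For genome build, annotation and use of strand in counting the entry is: not given in the sources used here. Symbols were known for 14821 identifiers. Gene depth is unknown. Genes were tested with limma 3.58.1 in R 4.3.3 on log2(TPM + 1) with a mean-variance trend, after division by median-ratio factors, two-sided, with Benjamini-Hochberg adjustment over 11752 genes. Fold changes on this scale understate changes of low genes. P-values measure the spread between 3 animals per group. The gene test on rescaled TPM was checked on simulated data, and the circRNA test was not.

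CircRNAs above 0 in at least 3 libraries were tested on log2(TPM + 0.045). Their TPM gave whole reads in every library for all 11375 (relative tolerance 1e-05), the smallest whole solution and so a lower bound, with 33580 to 72866 reads per library. Lengths in nt were worked out from the TPM of 1 read and are not annotated lengths. Starts were raised by 1. Hosts came from the Sscrofa11.1 RefSeq annotation, in whose genes 99.31% lay.

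Values of every library are given for members that passed, the 3 highest of each family and the 3 of lowest p that missed; of each related list the 4, and of circRNAs the 3, of lowest p are named. Members and lists were chosen with earlier results of these data known.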

Additional observations from a re-analysis of the deposited data

How the results depend on the processing

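With quantile scaling, a pseudocount of 0.1, a minimum of 5 TPM or no trend, 5 SRSF and 5 HNRNP members passed. The same numbers passed with equal sums of protein-coding TPM, taken without the mitochondrially encoded genes. In all these fits 10.4% to 12.9% of all tested genes passed as lower. Quantile scaling had HNRNPA1 (-0.43) in place of HNRNPR (limma adjusted p = 0.0502). On deposited TPM 1 SRSF and 0 HNRNP members passed (1.46% of all tested genes lower), and without a filter on low values 1 and 3 (4.60%). With 1 library left out, 1 to 4 SRSF and 1 to 3 HNRNP members passed (3.66% to 9.5%). The SRSF median was -0.81 on deposited TPM and -0.43 with equal sums, and the HNRNP median -0.75 and -0.37; with a library left out the HNRNP median ran from -0.34 to -0.23. Replicate numbers did not pair the animals (correlations 0.112, -0.074 and -0.163), and with a replicate block 2 SRSF and 3 HNRNP members passed (5.93%). Over all genes 2295 passed in the main comparison, 188 on deposited TPM, 1389 without a filter, 782 to 2165 with a library left out and 1250 with the block.

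Sign changes touched only members that had not passed. On deposited TPM SRSF1, SRSF3, HNRNPK, HNRNPL, HNRNPUL1 and HNRNPUL2 were at -0.50, -0.48, -0.42, -0.26, -0.36 and -0.48. With quantile scaling SRSF1, SRSF3 and HNRNPK were at -0.075, -0.047 and -0.035, and with equal sums SRSF1, SRSF3, HNRNPK and HNRNPUL2 at -0.11, -0.086, -0.025 and -0.092. With a library left out SRSF1 ran from -0.062 to 0.064, SRSF3 from -0.061 to 0.10 and HNRNPUL2 from -0.087 to 0.083. The cause was not tested. Member circRNAs gave 0 limma calls under each of 10 alternatives, with 0 to 2 at an unadjusted p under 0.05.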
